A study of Mus musculus with 577 samples.

Results

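Mouse chromosome 9 carries a tandem array of Fbxw genes, which encode F-box proteins with WD40 repeats, and the 10 members described here are Fbxw13, Fbxw14, Fbxw15, Fbxw16, Fbxw18, Fbxw19, Fbxw20, Fbxw21, Fbxw22 and Fbxw24. They were taken by symbol from every gene count table, in which they are 10 of 22060 protein-coding genes, and all 10 were present in each of those tables. The members were chosen by their levels in these same tables, with the difference between oocyte stages and between granulosa positions already known, so the values of those contrasts are a description and carry no independent support.

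The libraries come from ovaries of 8-week-old female mice and from mouse embryonic stem cells (mESCs) kept in 2i conditions, and most cells were cut from sections by laser capture microdissection (LCM) and lysed with DRaqL, a denaturing detergent that is afterwards quenched. Oocytes were labelled Primary (follicles with a single layer of granulosa cells), Secondary-antral (later follicles) or Grown (freshly dissociated), and granulosa cells were labelled neighboring or non-neighboring by whether they lay against the oocyte. DRaqL-SC3-seq, which reads the 3′ ends of transcripts, gave 30 Secondary-antral and 14 Primary oocytes, 31 neighboring and 26 non-neighboring granulosa cells, 45 fresh and 36 LCM mESCs, and further 10-cell pools (7 neighboring and 7 non-neighboring), 7 bulk granulosa samples of whole sectioned follicles and 2 serial sections from each of 8 oocytes. A commercial 3′-end kit, SMART-Seq v4 3′DE, was used as supplied (v4 kit) or after DRaqL lysis (DRaqL-v4), and other cells were prepared with LCM-seq, with DRaqL-Smart-seq2, from sections fixed in formalin for 24 h, and from a single proestrus mouse of which an ovary was sectioned and the other dissociated (Smart-seq2). The sources used here give no strain, altered allele or drug treatment of the animals, and cells were dissociated from cumulus-oocyte complexes in a medium with dibutyryl-cAMP, an analog of cAMP. The study states that the SC3-seq, SMART-Seq v4 and Smart-seq2 protocols, with and without DRaqL, were compared on sections of a single ovary. Its list includes DRaqL-Protease-Smart-seq2, the protease protocol with which the formalin-fixed cells were prepared. Sets made by different methods are therefore not independent animals. The labels name no animal for a cell, so each group of single cells counts as 1 sample, its mean ± SD describes cells only, and no test between single-cell groups was made; the 10-cell pools are the only replicated contrast.

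F-box proteins are the substrate-binding subunits of SCF ubiquitin ligases. The F-box docks on SKP1, which joins CUL1 and the RING protein RBX1, and a second domain, here the WD40 repeats, holds the protein that is to be ubiquitinated. Several F-box genes outside the array act in oocyte meiosis, among them Fbxo5 and Fbxo43, which encode the inhibitors EMI1 and EMI2 of the anaphase-promoting complex, while for most members of the array the substrate is not known.

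The 10 members lie between positions 109139447 and 109702700 of chromosome 9 (GRCm38, GENCODE vM21), a stretch of 563.3 kb, within an array of 15 annotated Fbxw genes that covers 651.2 kb. All 15 are on the minus strand. From the lowest coordinate the order is Fbxw21, Fbxw13, Fbxw20, Fbxw14, Fbxw28, Fbxw22, Fbxw16, Fbxw19, Fbxw23, Fbxw15, Fbxw24, Fbxw25, Fbxw18, Fbxw26 and Fbxw27. Fbxw14 (ENSMUSG00000105589) spans 109270790-109287676, Fbxw15 (ENSMUSG00000074060) spans 109552602-109568262 and Fbxw24 (ENSMUSG00000062275) spans 109601116-109626057. Near-identical copies bear on how reads are assigned. Of all stretches of 50 bases in the last 500 bases of a member's transcripts, a median of 92.4% occurred in no other gene (range 48.8% to 100%). The lowest value was that of Fbxw14, for which 51.2% of the stretches also occurred in Fbxw28, a gene that was not among the table rows used here, so reads of these paralogs could not be told apart by such stretches and the level of Fbxw14 is uncertain in that respect.

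RefSeq start sites with sequence were given for 8 of the 10 members (GRCm38.p6; Fbxw13 and Fbxw22 were not matched), and the bases just before 4 of them are shown because the members moved together between oocyte stages and because Fbxw20 departs from the shared sequence. Each line gives the 120 bases before the annotated start, 5′ to 3′ on the minus strand of chromosome 9; capitals mark the letters CAGCTG, a form of the E-box CANNTG, and TTTAAA, an AT-rich hexamer.
Fbxw14, chr9:109287677-109287796: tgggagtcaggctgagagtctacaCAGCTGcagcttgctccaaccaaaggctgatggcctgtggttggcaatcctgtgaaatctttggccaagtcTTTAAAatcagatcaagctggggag
Fbxw15, chr9:109568263-109568382: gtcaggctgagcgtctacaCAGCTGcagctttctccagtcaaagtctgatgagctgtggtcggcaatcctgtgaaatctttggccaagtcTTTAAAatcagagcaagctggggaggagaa
Fbxw24, chr9:109626060-109626179: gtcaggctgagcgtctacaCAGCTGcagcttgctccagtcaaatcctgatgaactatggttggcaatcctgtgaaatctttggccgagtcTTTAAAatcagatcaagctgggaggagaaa
Fbxw20, chr9:109234755-109234874: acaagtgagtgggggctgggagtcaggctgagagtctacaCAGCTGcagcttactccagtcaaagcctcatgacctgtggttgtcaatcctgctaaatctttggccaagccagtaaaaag

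Over the 250 bases before the start, the 28 pairs among these 8 members were 60.7% to 92.8% identical with a median of 80.2%, and the closest pair was Fbxw21 and Fbxw15. CAGCTG occurred within 120 bases of the start in 7 of the 8 members against 6.76% of 32851 RefSeq promoters, and TTTAAA also in 7 of 8 against 5.20%. Among array genes that are not members, Fbxw25, Fbxw26 and Fbxw28 carried both in this window and Fbxw23 neither, so the letters are not particular to the members. Both hexamers read the same on either strand, and TTTAAA was searched after the sequences had been seen. Fbxw20 lacked TTTAAA. Fbxw19 lacked CAGCTG in this window, and its annotated start lies further from TTTAAA (54 bases) than that of Fbxw14 (25 bases). The wider pattern CANNTG was present in 7 of 8 members and in 40.2% of all promoters. TATAAA and TAATTG, the latter a letter pattern bound by the oocyte homeodomain factor NOBOX, were searched on both strands and found in 0 of 8 windows, against 6.34% and 3.14% of all promoters. These are letter matches in closely similar sequences, not sites shown to be bound.

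Levels below are RPM over protein-coding genes (a gene's reads scaled to a common total of protein-coding reads per library), and "summed level" is log2(RPM + 1) of the reads of all 10 members together. The totals ranged from 873206 to 2338750 reads in DRaqL-SC3-seq oocytes and from 162033 to 1429292 in DRaqL-SC3-seq granulosa cells, but fell to 12748 in a dissociated granulosa cell. The labelled oocytes of the DRaqL-SC3-seq set carried, as groups, reads of all 14 oocyte markers (Zp2, Zp3, Gdf9, Bmp15, Obox and Oog genes and others), but so did both granulosa groups. Summed on the same scale, these markers had medians of 15.17 in Secondary-antral and 13.20 in Primary oocytes, against 3.12 in fresh and 1.79 in LCM mESCs. The 5 pluripotency markers had medians of 10.57 and 10.55 in fresh and LCM mESCs, against 7.14 and 5.28 in Secondary-antral and Primary oocytes.

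The members were abundant in oocytes and almost unread in stem cells. Summed over the 10 genes, Secondary-antral oocytes of DRaqL-SC3-seq held 11623 RPM on average, so more than 1% of their protein-coding reads came from this array. Their summed level was 13.41 ± 0.57 (SD, n = 30 oocytes; lowest 11.75, median 13.63, highest 14.05). In Primary oocytes the summed level was 8.97 ± 1.11 (SD, n = 14; lowest 7.49, median 8.91, highest 11.44), a mean of 684 RPM. Every Secondary-antral oocyte lay above every Primary oocyte, and the gap between the lowest of the former and the highest of the latter was 0.31. Only 3 reads of all members were found in the 45 fresh mESCs together, and 18 in the 36 LCM mESCs, of which 11 cells had any.

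The order of the stages was the same in all 4 sets that held both, DRaqL-SC3-seq, the v4 kit, DRaqL-v4 and formalin. In Secondary-antral oocytes the summed level was 13.98 ± 0.48 with the v4 kit (SD, n = 11), 13.71 ± 0.24 with DRaqL-v4 (SD, n = 9), 13.56 ± 0.24 after formalin (SD, n = 7) and 12.83 ± 0.47 in sections of the proestrus mouse (SD, n = 8). Freshly dissociated Grown oocytes of that mouse reached 14.07 ± 0.30 (SD, n = 14), and the serial sections 14.56 ± 0.33 and 14.54 ± 0.28 (SD, n = 8 each). From the highest to the lowest mean, neighbours in this order differed by less than the larger of their SDs, except that the serial sections lay 0.47 above the dissociated oocytes and the DRaqL-SC3-seq oocytes 0.58 above the section oocytes of the proestrus mouse. Primary oocytes stood at 9.69 ± 0.87 after formalin (SD, n = 5), 9.11 ± 1.68 with the v4 kit (SD, n = 7) and 5.99 ± 2.47 with DRaqL-v4 (SD, n = 6; lowest 1.38, median 6.42, highest 8.70). The DRaqL-v4 group was the most scattered, and 1 of its 6 oocytes had reads of a single member.

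**Figure D1:**
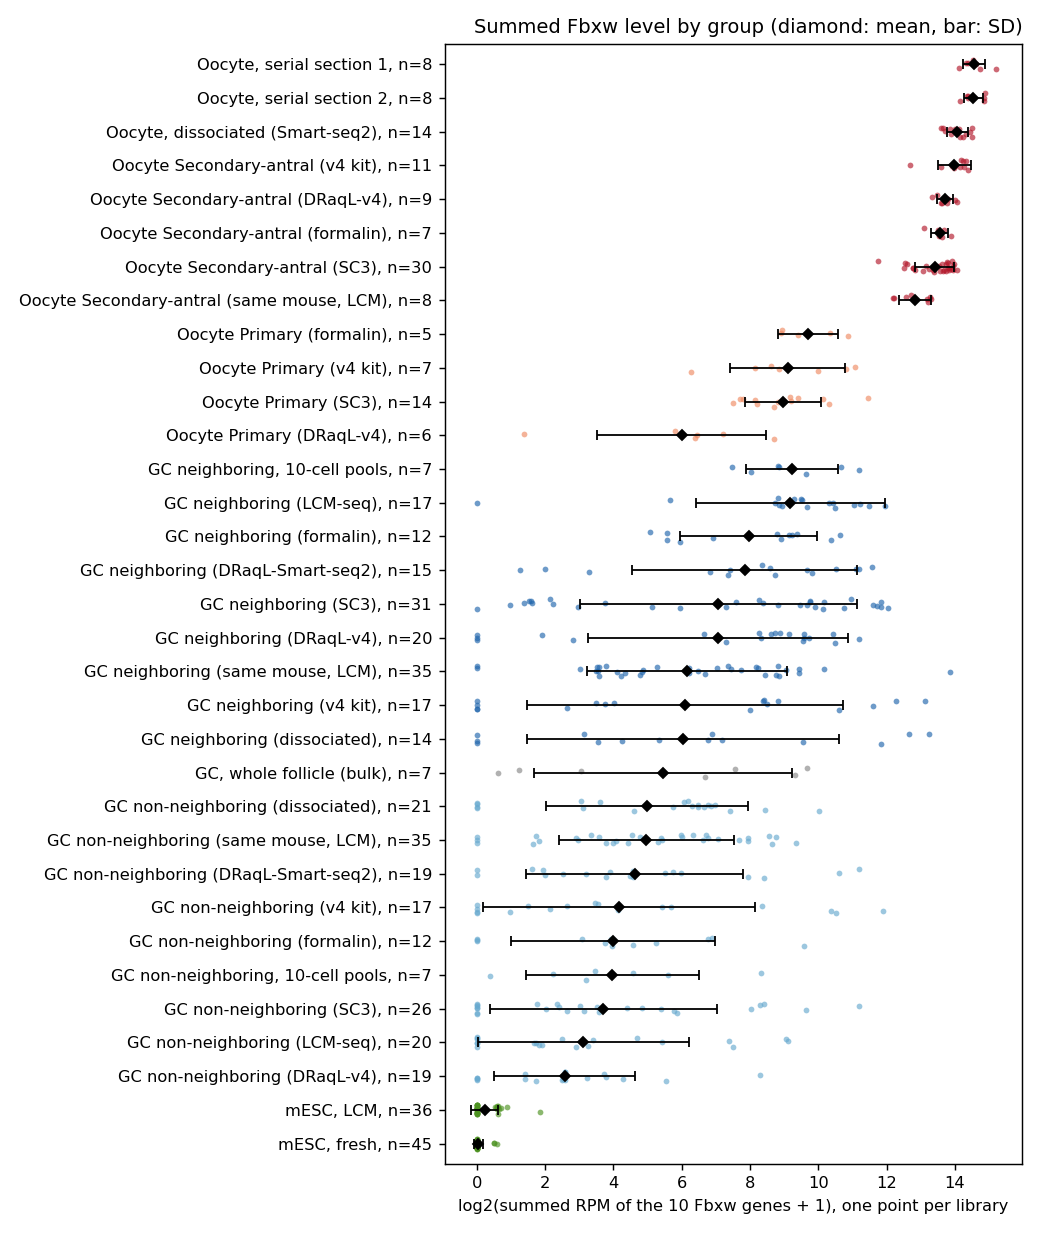
Summed level of the 10 Fbxw genes, as log2(summed RPM + 1) on the horizontal axis, for each library (points) of 33 groups, with the group mean (diamond) and SD (bar). Later oocytes sit between 11.75 and 15.21, Primary oocytes between 1.38 and 11.44, granulosa cells spread from 0 to 13.85, and mESCs stay at or below 1.84.

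Each member was higher in Secondary-antral than in Primary oocytes of DRaqL-SC3-seq. A gene is called past the fold here when its mean log2(RPM + 1) differed by more than 1.8 and it exceeded 4 in at least 1 library of the comparison. By that rule 10 of 10 members were past the fold, beside 15.4% of 13245 protein-coding genes that were higher in Secondary-antral oocytes. The median difference of the members was 5.19 on the log2 scale and that of all genes tested 0.30. The members were 10 of 10 past the fold also with the v4 kit (background 17.4%), with DRaqL-v4 (20.8%) and after formalin (14.3%), with median differences of 6.06, 7.65 and 3.93.

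The size of the difference was not the same for all. Fbxw14 had the largest of the 10 in DRaqL-SC3-seq, from 5.01 ± 1.163 in Primary (SD, n = 14; lowest 2.15, median 5.19, highest 6.57) to 11.40 ± 1.53 in Secondary-antral oocytes (SD, n = 30; lowest 5.84, median 12.10, highest 12.54), a difference of 6.39. A single Secondary-antral oocyte overlapped the Primary range. Fbxw15 had the smallest, from 7.10 ± 1.40 (SD, n = 14; lowest 5.48, median 6.82, highest 9.79) to 10.90 ± 0.28 (SD, n = 30; lowest 10.26, median 10.91, highest 11.39), a difference of 3.80, and its groups did not overlap. Fbxw18 (3.88), Fbxw21 (3.88) and Fbxw15 formed the lower end, and Fbxw22 (5.11), Fbxw24 (5.06), Fbxw13 (5.27), Fbxw20 (5.35), Fbxw16 (5.45) and Fbxw19 (6.02) lay between these and Fbxw14. Overlap between the stages was seen for Fbxw14, Fbxw18, Fbxw19, Fbxw20 and Fbxw22. The share of all protein-coding genes without such overlap is not given here. With the v4 kit Fbxw15 again had the smallest difference (2.84) and Fbxw19 the largest (8.93), with DRaqL-v4 Fbxw15 was smallest (5.71) and Fbxw14 largest (10.90), and after formalin, where the range was narrow, Fbxw18 was smallest (3.21) and Fbxw19 largest (4.70).

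**Figure D2:**
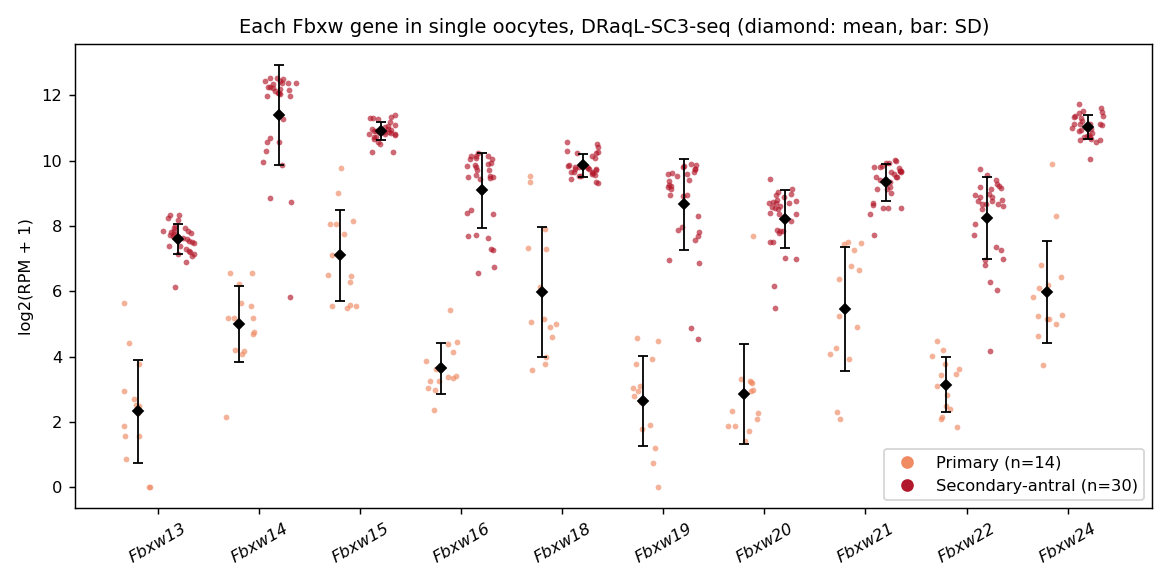
Level of each member as log2(RPM + 1) in 14 Primary and 30 Secondary-antral oocytes of DRaqL-SC3-seq, with a point per oocyte, the mean (diamond) and the SD (bar). All 10 means are higher in Secondary-antral oocytes, by 3.80 (Fbxw15) to 6.39 (Fbxw14).

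The make-up of the array's reads therefore differed between stages. In Primary oocytes of DRaqL-SC3-seq, Fbxw15 held 31.4% ± 16.2 of the members' reads and Fbxw14 9.70% ± 7.63 (SD, n = 14). In Secondary-antral oocytes Fbxw14 held 28.8% ± 11.3, Fbxw24 20.2% ± 6.28 and Fbxw15 18.6% ± 6.76 (SD, n = 30). These are shares of 3′-end reads, so they are not scaled by length. Taken per oocyte, log2(RPM + 1) of Fbxw14 minus that of Fbxw15 was -2.09 ± 2.08 in Primary oocytes (SD, n = 14), with Fbxw14 higher in 3 of 14, and 0.50 ± 1.44 in Secondary-antral oocytes (SD, n = 30), with Fbxw14 higher in 21 of 30. The v4 kit gave -3.09 ± 1.23 in Primary (SD, n = 7) and 1.60 ± 0.24 in Secondary-antral oocytes (SD, n = 11), with Fbxw14 the higher in 0 of 7 and 11 of 11. With DRaqL-v4 the values were -4.16 ± 0.87 (SD, n = 5 with at least 5 reads of the pair) and 1.72 ± 0.31 (SD, n = 9). After formalin the stages overlapped, at 0.41 ± 1.87 (SD, n = 5) and 1.51 ± 0.42 (SD, n = 7). The serial sections, at 2.09 ± 0.14 and 2.12 ± 0.19 (SD, n = 8 each), and the dissociated Grown oocytes, at 1.67 ± 0.20 (SD, n = 14), all had Fbxw14 as the higher.

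Within the 30 Secondary-antral oocytes of DRaqL-SC3-seq the members varied to different degrees. Fbxw15, Fbxw18 and Fbxw24 had the smallest SDs on the log2 scale, 0.28, 0.34 and 0.37. Fbxw13 (0.47), Fbxw21 (0.58) and Fbxw20 (0.89) followed, and Fbxw16, Fbxw22, Fbxw19 and Fbxw14 had SDs of 1.14, 1.26, 1.39 and 1.53. In 9 of these oocytes Fbxw15 exceeded Fbxw14. Those 9 had summed levels of 11.75 to 13.26, and the 21 in which Fbxw14 exceeded Fbxw15 had 13.15 to 14.05. The summed level includes Fbxw14 itself, so the 2 are not independent. In the lowest oocyte Fbxw14 was at 56.3 RPM beside 1228 RPM of Fbxw15, 646 RPM of Fbxw18 and 1052 RPM of Fbxw24. In the highest oocyte these 4 genes were at 5556, 2569, 1384 and 3436 RPM. Fbxw14 thus differed far more between these oocytes than the other 3 genes. Across the 30 oocytes, the difference of Fbxw14 minus Fbxw15 followed the summed level of the other 8 members (Pearson's r = 0.83) and little the total of reads (r = 0.16), where all values of an oocyte share its library. In the 14 Primary oocytes r with the other 8 members was -0.36. All 45 pairs of members had a positive r over the 30 oocytes, with a median of 0.68, the highest for Fbxw14 and Fbxw22 (0.97) and the lowest for Fbxw15 and Fbxw16 (0.30). Over the 14 Primary oocytes the median was 0.26, and 38 of 45 pairs were positive.

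**Figure D3:**
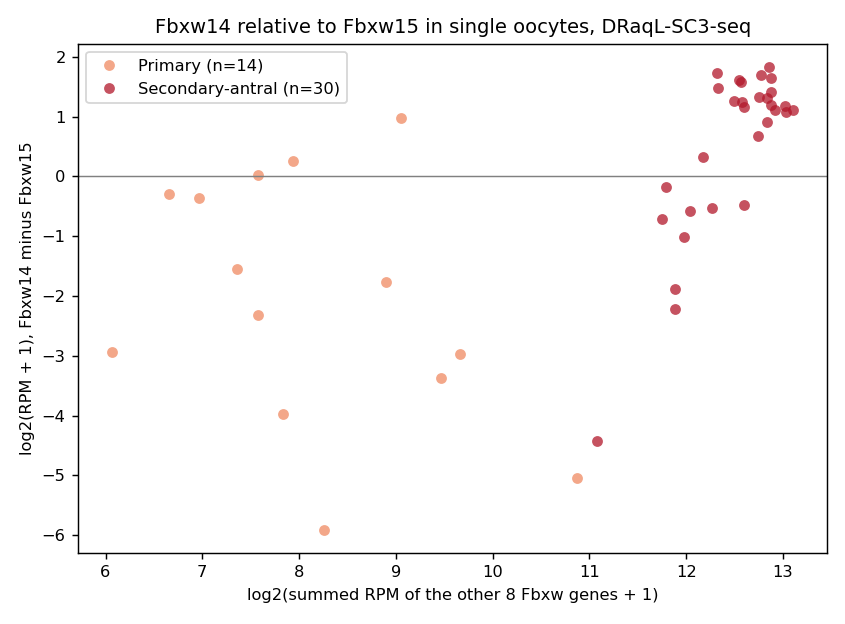
Difference of Fbxw14 minus Fbxw15 in log2(RPM + 1) on the vertical axis against log2(summed RPM + 1) of the other 8 members on the horizontal axis, for 14 Primary and 30 Secondary-antral oocytes of DRaqL-SC3-seq (a point per oocyte; the grey line marks equal values). Of the Secondary-antral oocytes, 9 lie below the line and towards the left of their group, and 11 of 14 Primary oocytes lie below it.

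Primary oocytes also differed among themselves in which member led. Fbxw15 had the most reads in 7 of 14, Fbxw18 in 3, and Fbxw14, Fbxw20, Fbxw21 and Fbxw24 in 1 each. Fbxw20 was at 207 RPM in a Primary oocyte in which no other member but Fbxw21 exceeded 100 RPM, whereas the median of Fbxw20 over the 14 was 5.38 RPM. In the Primary oocyte with the highest summed level, Fbxw24 was at 961 RPM, Fbxw15 at 881 RPM and Fbxw18 at 742 RPM, while Fbxw14 stayed at 25.8 RPM.

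Serial sections of the same oocyte gave a measure of technical spread. The summed level of the 2 sections of an oocyte differed by a median of 0.23 and by at most 0.33 over 8 oocytes, and the SD between oocytes was 0.28. Fbxw14 (13.31), Fbxw24 (12.03) and Fbxw15 (11.20) had the highest mean levels, with median differences between sections of 0.20, 0.19 and 0.23. The scarcer Fbxw20 and Fbxw13 differed by up to 1.32 and 1.15, and Fbxw16 by up to 1.10. By the profile of the 10 members, the section most like a given section was the other section of the same oocyte in 3 of 16 cases.

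Full-length libraries of 5 Secondary-antral oocytes allowed levels to be compared between members per length. The study states that cDNAs of 10 oocytes were sequenced this way and that the 5 with the most mapped reads were used. Their library names carry the numbers of Secondary-antral oocytes of DRaqL-SC3-seq, so they are not a further set of oocytes. Counted over the 10 exons of each member's transcript with the most exons, Fbxw14 had 1325 ± 417 RPKM (reads scaled to exon length and to the library's total of exon reads; SD, n = 5), Fbxw24 1276 ± 191 and Fbxw15 965 ± 58.1. Fbxw14 varied from 593 to 1578 RPKM and overlapped both of the others, whereas the lowest value of Fbxw24 (1072) was above the highest of Fbxw15 (1063). Fbxw18 followed at 466.1 ± 143, then Fbxw21 at 356 ± 135, Fbxw16 at 333 ± 144 and Fbxw19 at 273 ± 100.6. Fbxw22 (198 ± 40.97), Fbxw20 (190 ± 54.7) and Fbxw13 (101.2 ± 29.7) were lowest, and neighbours from Fbxw18 to Fbxw20 differed by less than the larger of their SDs. In all, the members took 41683 to 73319 of the exon reads of an oocyte, a summed level of 13.05 ± 0.35 on the log2 scale (SD, n = 5; lowest 12.43, median 13.19, highest 13.30), and 1 to 10 reads in each of the 10 mESC libraries counted the same way. Junction reads of a member ranged from 162 (Fbxw13) to 5445 (Fbxw14) per oocyte, and all 10 members had at least 3 junctions read in every oocyte. Coverage leaned to the 3′ end. In Fbxw14 it rose from 72.1 reads per 100 bases in exon 1 (109287550-109287676) to 4594 in exon 9 (109274031-109274155), and in Fbxw15 from 15.1 in exon 1 to 2783 in exon 9. An RPKM therefore rests mainly on the last exons.

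**Figure D4:**
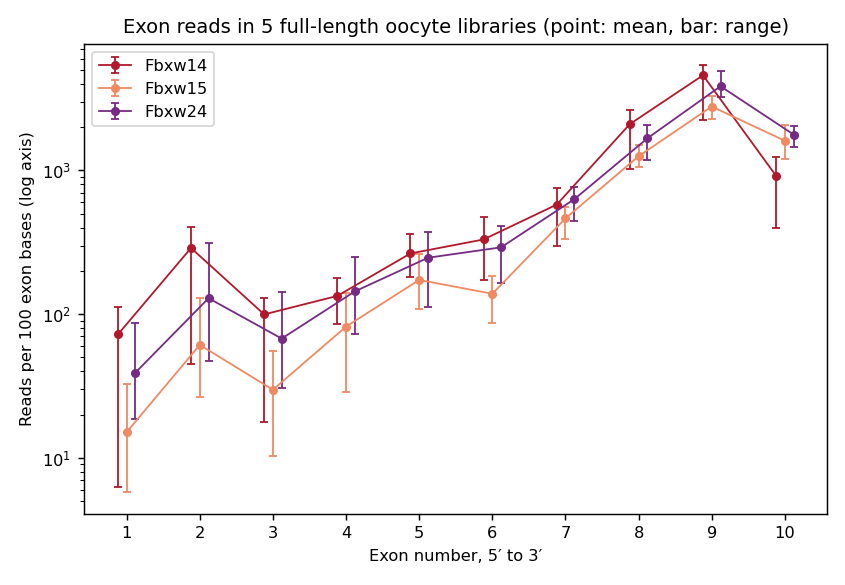
Reads per 100 exon bases (log axis) in exons 1 to 10 of Fbxw14, Fbxw15 and Fbxw24 in 5 full-length Secondary-antral oocyte libraries (point, mean; bar, lowest to highest library). All 3 genes peak in exon 9, at 2783 to 4594 reads per 100 bases.

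Other genes of the array and of the family were compared on the same scale. Fbxw25 and Fbxw26, array genes that are not members, were higher in Secondary-antral oocytes by 4.66 and 4.57 in DRaqL-SC3-seq, from 3.27 ± 1.15 to 7.93 ± 0.82 and from 3.86 ± 1.75 to 8.43 ± 0.36 (SD, n = 14 and 30). Of the 10 genes of the family elsewhere in the genome, Fbxw4 was past the fold upwards (2.49), beside 15.4% of all genes tested, and Fbxw5 downwards (-1.94). Neither held in every set, since the v4 kit, DRaqL-v4 and formalin gave 4.11, 6.15 and 1.15 for Fbxw4 and -2.09, -0.47 and 0.13 for Fbxw5. The others, Fbxw2 (-1.39), Fbxw7 (-0.14), Fbxw8 (-0.72), Fbxw9 (0.50), Fbxw10 (0.29), Fbxw11 (0.07), Fbxw17 (-0.39) and Btrc (0.60), were not. In other sets Fbxw2 differed by -2.39 (DRaqL-v4), Fbxw11 by -1.94 (formalin) and Btrc by 1.82 (v4 kit). Among the 10 nearest protein-coding genes outside the array, 5 on each side, 2 were past the fold upwards, beside 15.4% of all genes tested. These were Plxnb1 (3.26), a semaphorin receptor that adjoins the array, and Cdc25a (3.18), a phosphatase that activates cyclin-dependent kinases. The range over the 10 was -1.44 to 3.26 with a median of 0.14.

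The partners that an F-box protein needs were read at both stages. Of 8 genes of the SCF core and its neddylation (Skp1a, Cul1, Rbx1, Rnf7, Cand1, Nedd8, Ube2m and Cdc34), 1 was past the fold upwards in DRaqL-SC3-seq, Skp1a, from 7.64 ± 0.82 to 9.45 ± 0.44 (SD, n = 14 and 30), and 0 downwards. Its difference of 1.81 was at the edge of the rule, and the other sets gave 0.70 to 1.59. Cul1, the scaffold, differed by 1.42 in DRaqL-SC3-seq and by 1.40 to 1.97 in the others. Of 6 other F-box genes read in oocytes, 4 were past the fold upwards, Fbxo5 (3.198), Fbxo43 (3.43), Fbxo30 (2.96) and Fbxo34 (2.70), beside the 15.4% of all genes, while Fbxo31 and Skp2 were not. Fbxo5 and Fbxo30 were past 1.8 in the other 3 sets as well, but Fbxo43 differed by 0.93 after formalin and Fbxo34 by 1.77 with the v4 kit. Over the 44 DRaqL-SC3-seq oocytes, the non-members whose levels followed the members' summed level most closely among 13235 genes included Scg3 (r = 0.97), which encodes a secretory granule protein, Psrc1 (0.96), a microtubule-associated protein, Oosp1 (0.96), an oocyte-secreted protein, and Gm15698 (0.96). For these 4 genes r was 0.80 to 0.88 within the 30 Secondary-antral oocytes alone, and within the 14 Primary oocytes 0.52 to 0.77. Fbxw25 ranked 7 of the 13235 (r = 0.96).

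Granulosa cells held member reads too, at lower and far more scattered levels. In DRaqL-SC3-seq, neighboring cells had a summed level of 7.07 ± 4.05 (SD, n = 31; lowest 0, median 8.39, highest 12.03) and non-neighboring cells 3.70 ± 3.32 (SD, n = 26; lowest 0, median 3.07, highest 11.20). The groups overlapped almost entirely, with 5 of 31 neighboring cells above the highest non-neighboring cell, and the difference of 3.37 was smaller than the SD between cells. By the fold rule 5 of 10 members were higher in neighboring cells, Fbxw14 (2.47), Fbxw16 (1.99), Fbxw15 (1.97), Fbxw22 (1.83) and Fbxw24 (1.82), beside 0.55% of 14011 genes. The 14 oocyte markers moved in the same direction, with a summed level of 0 to 14.08 (median 11.52) in neighboring and 0 to 13.81 (median 5.95) in non-neighboring cells, and all 14 were read in some cells of either group. Zp3 was at 0 in 14 of 31 neighboring and 12 of 26 non-neighboring cells. For Zp2 these counts were 12 and 14, and for Gdf9 4 and 12. Across cells the members' summed level followed that of the oocyte markers with r = 0.75 in neighboring and 0.83 in non-neighboring cells, where both values of a cell share its library. The part of oocyte RNA in the granulosa values was not tested. Cells numbered up to 72 in their labels gave 5.68 (n = 22) and 2.62 (n = 20), and later numbers 10.48 (n = 9) and 7.31 (n = 6), so the level moved with the numbering by more than with position.

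The other single-cell sets, several of which share an ovary, also had the higher mean in neighboring cells, with overlapping groups in each. LCM-seq gave 9.17 ± 2.77 and 3.12 ± 3.10 (SD, n = 17 and 20), with 10 of 10 members past the fold (background 4.53%). DRaqL-Smart-seq2 gave 7.84 ± 3.29 and 4.63 ± 3.18 (SD, n = 15 and 19), with 8 of 10 (2.52%). Formalin-fixed cells gave 7.96 ± 2.02 and 3.98 ± 2.98 (SD, n = 12 each), with 9 of 10 (5.31%). DRaqL-v4 gave 7.06 ± 3.81 and 2.57 ± 2.07 (SD, n = 20 and 19), with 6 of 10 (1.91%), and the v4 kit 6.09 ± 4.63 and 4.15 ± 3.99 (SD, n = 17 each), with 3 of 10 (1.51%). Fbxw14, Fbxw16 and Fbxw24 were past the fold in all 5 of these sets. The oocyte marker list was likewise higher in neighboring cells in each, from a median of 8.71 (DRaqL-v4) to 10.59 (LCM-seq) against 2.59 to 6.31.

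On the scale of mean log2 levels, the position difference was smallest in the proestrus mouse. As a log2 ratio of summed counts it was 2.70 in its section cells and 2.88 in its dissociated cells, above the 2.58 of DRaqL-SC3-seq and the 2.09 of the v4 kit. Such a ratio leans on the cells with the most member reads. The highest neighboring cell was at 13.85 in section and 13.23 in dissociated cells, the highest non-neighboring cell at 9.34 and 10.03. Section cells of the proestrus mouse gave 6.15 ± 2.92 and 4.97 ± 2.57 (SD, n = 35 each), with 1 of 10 members past the fold, Fbxw14 (2.03; background 0.812%). Its dissociated cells gave 6.02 ± 4.57 and 4.99 ± 2.96 (SD, n = 14 and 21), again with 1 of 10, Fbxw19 (1.90; background 0.396%). The oocyte markers had medians of 8.46 and 6.96 in section cells and of 7.30 and 7.28 in dissociated cells. In the latter only the medians were level, since the highest cell was at 14.26 in neighboring and 11.16 in non-neighboring cells. In this table some granulosa libraries carry the same library-set name as an oocyte library, and the values moved with it. Dissociated neighboring cells had a mean of 9.07 in sets with an oocyte (n = 6) and 3.74 in sets without (n = 8), and non-neighboring cells 6.35 (n = 14) and 2.26 (n = 7). Within sets without an oocyte the difference by position was 1.49 for dissociated and 1.58 for section cells, and within sets with an oocyte 2.71 and 0.25. The part of the shared sets in these values was not tested. The study describes transcriptomes mixed between both cell types in some dissociated granulosa cells, more often in those attached to an oocyte. Such cells are kept in the dissociated groups here, whereas the DRaqL-SC3-seq granulosa groups were made without the cells that the study set apart. The study describes such an exclusion for DRaqL-SC3-seq alone. By the summed oocyte markers the cells set apart were at 10.54 to 13.53. Kept DRaqL-SC3-seq cells reached 14.08 in neighboring and 13.81 in non-neighboring cells. Section cells of the proestrus mouse reached 14.80 and 14.15, where its section oocytes had a median of 14.71. The part of mixed cells in these values was not tested.

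The 10-cell pools were the contrast with replicates, and in pooled as in bulk samples fewer cells with a transcript and less transcript per cell cannot be told apart. Neighboring pools had summed levels of 8.82, 8.86, 7.47, 10.66, 11.18, 9.65 and 8.02, a mean of 9.24 ± 1.35 (SD, n = 7), and non-neighboring pools 8.32, 5.60, 2.22, 4.57, 3.18, 3.46 and 0.39, a mean of 3.96 ± 2.54 (SD, n = 7). Only the highest non-neighboring pool reached the range of the neighboring ones. That pool owed its level to Fbxw24 (155 RPM) and Fbxw15 (153 RPM), while its Fbxw14 was at 4.08 RPM.

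Fbxw14 separated the pools fully, and the share of all genes that did so is not given here. It was at 239, 199, 113.7, 892, 675, 531 and 146 RPM in the neighboring pools and at 4.08, 9.59, 0.66, 0.48, 1.06, 2.89 and 0 RPM in the non-neighboring ones. Its log2 fold change was 7.08 ± 0.99 (SE; edgeR's quasi-likelihood test, adjusted p = 0.00337 over 9704 genes, Benjamini-Hochberg), and it was higher in 7 of 7 pools. Of the 10 members 6 passed the filter on low counts and 1 was called, beside 0.453% of all genes tested that were called higher in neighboring pools. Fbxw18 (log2 fold change 5.35 ± 1.27, SE, edgeR adjusted p = 0.0752) and Fbxw22 (5.60 ± 1.46, SE, edgeR adjusted p = 0.146) missed the threshold, although in each the 7 neighboring pools also lay above the highest non-neighboring pool. Fbxw15 (1.70 ± 1.59), Fbxw21 (2.26 ± 1.42) and Fbxw24 (2.46 ± 1.47) did not pass (edgeR adjusted p = 0.998 each). Fbxw13, Fbxw16, Fbxw19 and Fbxw20 were below the filter, with means of 7.97, 65.7, 63.4 and 4.99 RPM in neighboring and 0.48, 0.41, 0.62 and 0.35 RPM in non-neighboring pools. With DESeq2, which gave all 10 members an adjusted p, 5 were called, Fbxw14, Fbxw16, Fbxw18, Fbxw19 and Fbxw22, beside 2.13% of 14106 genes called higher in neighboring pools. Leaving out neighboring pool 1, neighboring pool 3 or non-neighboring pool 2 gave 2 members by edgeR, Fbxw14 and Fbxw16, and leaving out non-neighboring pool 1 gave Fbxw14 and Fbxw24. Of the 14 oocyte markers 9 were called higher in neighboring pools by the same edgeR test, and their summed level was 9.74 to 13.11 in neighboring and 1.74 to 7.25 in non-neighboring pools; the part of oocyte RNA in the members' values was not tested. Of 10 granulosa markers 6 were tested and 0 called by edgeR, with 0 at an unadjusted p below 0.05 and 0 of these 6 called by DESeq2. Theca and interstitial markers lay the other way, with all 5 of those in the table read in both groups and a summed level of 0 to 8.34 (median 0.31) in neighboring and 1.06 to 10.53 (median 7.54) in non-neighboring pools. Their part in the members' values was not tested.

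**Figure D5:**
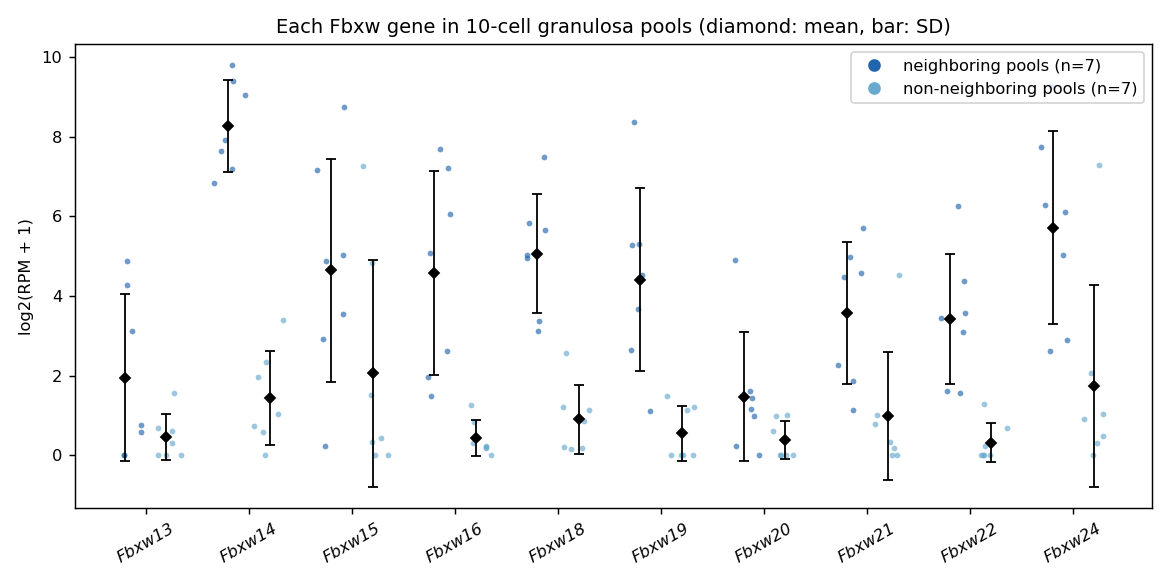
Level of each member as log2(RPM + 1) in 7 neighboring and 7 non-neighboring 10-cell granulosa pools, with a point per pool, the mean (diamond) and the SD (bar). For Fbxw14, Fbxw18 and Fbxw22 all 7 neighboring pools lie above all non-neighboring pools.

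Bulk granulosa of whole sectioned follicles varied widely between samples. The 7 samples had summed levels of 6.68, 3.04, 9.33, 9.66, 7.56, 1.23 and 0.61, and Fbxw14 was at 26.9, 1.45, 229, 318, 66.6, 0 and 0.26 RPM. The oocyte markers had the same order of samples, with summed levels of 7.58, 5.28, 9.89, 10.74, 8.86, 3.57 and 2.58, and the labels do not say from which follicles an oocyte had first been cut away.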

How the data were processed

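The authors trimmed reads with fastp 0.20.0 and cutadapt 1.16, mapped them to GRCm38 with HISAT2 2.1.0 and counted them per gene with HTSeq 0.10.0, or per exon and junction with featureCounts 2.0.1, and the deposited tables hold raw read counts. From these counts, RPM over protein-coding genes and log2(RPM + 1) were computed here. The 10 members and all gene lists were chosen with earlier results of these data known. Named genes are the members, the listed genes and the 5 non-members most correlated with the summed level, of which 1 is not reported here. Single-cell groups were described by mean ± SD without a test. Pools were tested with edgeR 4.0.16 (R 4.3.3; TMM, filterByExpr, quasi-likelihood, Benjamini-Hochberg adjustment over all genes tested, threshold 0.05), with DESeq2 1.42.0 as an alternative. The pools are separate captures, but the labels do not say whether they came from different animals, so p-values measure the spread between these pools. On simulated counts for the pools (9704 genes), 68% of genes changed by a log2 fold of 4 and 7% of those changed by 2 were recovered, with 0 false calls. RPKM used each member's transcript with the most exons. Totals on protein-coding genes ranged from 12748 (a dissociated granulosa cell) to 17506401 reads (a serial section), and low totals limit the precision of low levels. The SDs of shares and levels describe the spread between libraries. Reads carry no molecular identifiers, so amplified copies are part of the counts. Spike-in counts were used only for an alternative scaling, and spike-in tables of other sets and the mESC junction table were not used here.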

Additional observations from a re-analysis of the deposited data

Results flagged for a closer look

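In groups of 4 to 10 libraries, the highest or lowest library stood apart from its nearest neighbour by Dixon's criterion in 15 of 122 combinations of group and member, and chance marks about 1 in 20 groups. All levels are log2(RPM + 1). Among the pools these were Fbxw20 at 4.90 in neighboring pool 5, Fbxw21 at 4.52 in non-neighboring pool 4 and Fbxw24 at 7.28 in non-neighboring pool 1, where the next highest non-neighboring pool had 2.07. In the serial sections, Fbxw14 (13.98) and Fbxw22 (10.71) were high in section 1 of oocyte 2, Fbxw19 (9.52) was low in section 2 of oocyte 1 and Fbxw20 (10.39) was high in section 2 of oocyte 4. In sections of the proestrus mouse, Fbxw18 was low in oocyte 8 (7.20). In Primary oocytes of the v4 kit, Fbxw18 was low in oocyte 3 (1.66), Fbxw19 was high in oocyte 1 (2.98) and Fbxw20 was high in oocyte 2 (0.99). In Primary oocytes of DRaqL-v4, Fbxw13 (0.69) and Fbxw20 (4.58) were high in oocyte 1 and Fbxw19 (1.38) in oocyte 5. In the full-length libraries, the summed level of oocyte 3 was 12.43, below the next lowest at 13.11.

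Signal was also found in data that entered none of the report's own comparisons. A separate DRaqL-SC3-seq table labelled as granulosa cells of mixed profile held 3 cells. Their summed levels were 9.30 and 8.59 in the non-neighboring cells and 10.90 in the neighboring cell. The array genes Fbxw27 and Fbxw23, matched by gene identifier, averaged 9.02 and 8.41 in the first serial sections (n = 8 each), against 1.00 and 0.16 in non-neighboring pools.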

How the results depend on the processing

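Of the values under other settings, 92 stayed within the spread of the reported value or within 1.5 times a reported count, and 12 moved, with 0 changes of direction. For granulosa positions that spread was an SD between cells of 2.55 to 4.32, in several sets wider than the difference itself. Staying within it is therefore a weak criterion for those rows. Spike-in scaling raised the stage difference of the summed level to 6.35 with the v4 kit and to 5.20 after formalin, and the log2 ratio of summed counts lowered it to 5.75 with DRaqL-v4. Leaving out each Primary oocyte after formalin gave 3.67 to 4.16. The oocyte minus mESC difference of 11.88 was 14.84 with a pseudocount of 0.1, 8.67 with 10 and 15.94 as a ratio of summed counts. The position difference of the dissociated cells was 1.04 as reported and 2.88 as a ratio of summed counts. That of the section cells of the proestrus mouse was 1.19 and 2.70, and both shifts counted as within the spread. Leaving out each full-length oocyte gave 12.98 to 13.20. In the pools, 1 member was called by edgeR, 5 by DESeq2 and 2 without the filter on low counts, and leaving out each pool gave 1 to 2 members, with 3 to 56 genes called in all. With the pool number as a replicate block, 1 member (Fbxw14, edgeR adjusted p = 0.0256) and 3 genes in all were called. Same-numbered pools had correlated deviations of 0.0059 to 0.188, over 0.1 in 2 of 7 pairs, and 3 of 7 correlated best with their own number. The labels do not say whether a number marks a shared follicle or animal, and these values cannot settle it. Library sets without an oocyte were compared after the data had been seen. The causes of these shifts were not tested.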

Other observations

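Fbxw23, annotated as a transcribed pseudogene of the array, and Fbxw27 carry other names in the tables and were matched by gene identifier. With the v4 kit, Fbxw27 was at 6.99 ± 1.01 in Primary and 10.03 ± 0.45 in Secondary-antral oocytes (SD, n = 7 and 11), on the scale of log2(RPM + 1). In the same libraries Fbxw23 was at 4.30 ± 1.73 and 9.91 ± 0.62.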
